A study of Mus musculus with 8 samples.

Results

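The 5hmC peak list of F0-HDM_F1-Saline against F0-Saline_F1-Saline held 38333 peaks, out of 329018 peaks in the 6 lists of the series, and every one of its entries was taken as a member. The list came from adult mouse lung in which hydroxymethylated DNA had been captured with an hMethylCap kit and sequenced, and it set the progeny of dams given house dust mite (HDM) against the progeny of dams given saline, without an HDM challenge in adult life in either group. The question it addresses is whether maternal exposure alone leaves marks on the lung genome of the grown offspring. In F0-HDM_F1-Saline, C57BL/6J dams were sensitized with 100 μg of HDM extract before mating and instilled with HDM into the trachea through pregnancy and lactation, and their male progeny received saline from 6 weeks of age. In F0-Saline_F1-Saline, dams and male progeny of the same strain received saline throughout on the same schedule. Each group was 1 sequencing library, made from whole lung DNA pooled over mice born to 3 dams. With 1 library a side there is no replicate error, no test between the groups was possible, and the p-values below are those the peak caller attached to single peaks. By the sample descriptions, peaks were searched in the F0-HDM_F1-Saline library with the F0-Saline_F1-Saline library as control. The list itself did not label a peak as a gain or a loss, and it gave no read counts, so the depth behind each peak is unknown. Because whole lung was used, a shift in cell makeup and a shift in modification per cell cannot be told apart, and the lists held no expression values with which to check the tissue against its markers.

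5-hydroxymethylcytosine (5hmC) is made from 5-methylcytosine (5mC) by the TET dioxygenases, which add an oxygen to the methyl group and so open a route to active demethylation. In differentiated mammalian cells the mark is known for lying mostly at CpG sites, in the bodies of genes and at enhancers. In mammals 5mC is written and copied by the DNMT enzymes and read by MBD proteins.

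The members were stretches of DNA, and the 6 windows printed next each show the central 121 bp of the strongest coding-exon peak outside repeated sequence in a gene that the results turn on. They were chosen after the values were seen. All are the plus strand of the mouse build GRCm38/mm10, 5′ to 3′, and capitals mark each CpG, the site at which 5hmC can lie on both strands. Eef2 encodes elongation factor 2 of protein synthesis, Tet3 an enzyme that makes 5hmC, Smad6 an inhibitor of BMP signalling, Col6a3 a chain of collagen VI and Dnah8 a motor protein of the axoneme. Tmem125, a gene for a transmembrane protein, was among the genes that the study measured singly.
Eef2 chr10:81178066-81178186: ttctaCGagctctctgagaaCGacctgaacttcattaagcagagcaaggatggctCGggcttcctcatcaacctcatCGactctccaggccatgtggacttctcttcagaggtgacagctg
Tmem125 chr4:118541927-118542047: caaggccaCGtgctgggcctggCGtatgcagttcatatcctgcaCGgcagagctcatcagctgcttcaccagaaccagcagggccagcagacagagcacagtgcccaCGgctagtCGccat
Tet3 chr6:83404504-83404624: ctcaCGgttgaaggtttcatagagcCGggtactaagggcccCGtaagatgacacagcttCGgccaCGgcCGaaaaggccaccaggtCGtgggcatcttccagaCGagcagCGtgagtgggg
Smad6 chr9:63953730-63953850: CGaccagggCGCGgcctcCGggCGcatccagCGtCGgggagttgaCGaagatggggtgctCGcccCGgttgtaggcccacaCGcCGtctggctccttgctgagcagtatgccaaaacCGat
Col6a3 chr1:90802284-90802404: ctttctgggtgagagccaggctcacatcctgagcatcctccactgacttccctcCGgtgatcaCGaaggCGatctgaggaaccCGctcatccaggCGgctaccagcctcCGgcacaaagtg
Dnah8 chr17:30760958-30761078: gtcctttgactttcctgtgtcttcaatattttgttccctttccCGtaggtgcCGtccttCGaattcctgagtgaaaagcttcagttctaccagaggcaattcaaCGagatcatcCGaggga
The windows held 4 CpG in Eef2, 5 in Tmem125, 9 in Tet3, 13 in Smad6, 6 in Col6a3 and 5 in Dnah8. Every base of them was coding sequence except in Dnah8, where 73 of the 121 bp were coding and the rest lay in the intron before that exon.

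The Eef2 window lay within the peak at chr10:81177917-81178294, in exon 3, with a peak shape score of 13.2 and a listed p of 5.82e-40. The score is the caller's measure of how well the reads over a place match the shape of a peak, and the listed p was the upper normal tail of that score in every entry. The other windows came from far weaker peaks, with scores of 2.71 in Tmem125, 2.49 in Dnah8, 2.36 in Tet3, 2.28 in Smad6 and 2.20 in Col6a3. These 5 scores are nearer to the body of the list than the Eef2 score, as the distribution below shows.

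Scores over the whole list ran between 1.282 and 39.8, with a median of 1.65. Only the top 10% exceeded 2.51 and only the top 1% exceeded 6.50. The authors' list reached down to p = 0.1: 19181 peaks had a p of 0.05 or less, 5399 of 0.01 or less and 632 of 1e-06 or less. The peaks were alike in size, with a median length of 445 bp, quartiles of 434 and 465 bp, and a full range of 178 to 641 bp. The 3 of the 5 widest peaks that overlapped a gene, each 641 bp long, lay in introns of Gm21989 (score 3.29), Tex11 (2.93), which acts in meiosis, and Ppard (2.63), a nuclear receptor. The 2 of the 5 shortest that overlapped a gene, 216 and 220 bp long, both lay in the predicted gene Gm26870.

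The peaks were rich in CpG. The median peak carried 4.08 CpG per 100 bp, against 0.826 in the genome as a whole, and its GC content was 53.4%, against 41.7% genome-wide. Only 27 of 38333 peaks (0.0704%) held no CpG at all. In the 5mC list of the same 2 groups, made from the same DNA pools but other libraries, the median was 1.05 CpG per 100 bp and 9.12% of peaks held no CpG. The 5hmC list of F0-HDM_F1-HDM against F0-Saline_F1-HDM, the same maternal contrast in progeny challenged with HDM as adults and sharing no library with the present one, had a median of 3.70 CpG per 100 bp. The 5hmC peaks of both maternal contrasts were thus richer in CpG than the 5mC peaks.

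The list was a mixture of places of very different kinds. Of its peaks, 18595 (48.5%) lay in multi-copy sequence, meaning that at least 50% of their 51-bp windows occurred again, base for base, elsewhere in the assembled genome. The corresponding share was 16.7% for the 5mC list and 28.4% for the 5hmC list of the HDM-challenged progeny. Of single 51-bp windows sampled along the genome, 13.9% occurred again, which is a share of windows and not of peak-sized stretches. A read from such sequence cannot be placed with certainty, and how the authors treated these reads is not given in the sources used here. The multi-copy peaks, with a median of 64 copies, were 71.0% intergenic, and 0.89% of them were centred in a coding exon. Of the other 19738 peaks, 32.6% were intergenic and 31.1% (95% Clopper-Pearson interval 30.4 to 31.7%) were centred in a coding exon, 22.5 times the coding share of the genome. All such intervals cover counting error only.

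The stronger the score, the larger the multi-copy share, up to a point. Between scores of 1.2 and 1.5 the multi-copy share was 28.4% and the coding-exon share 21.8%, over 12969 peaks. Between 2 and 3, the shares were 78.3% and 6.56%, and between 3 and 5 they were 88.0% and 1.64%. Above 10 they were 69.3% and 5.23%, over 153 peaks. Of the 6294 coding-exon peaks, 2830 scored between 1.2 and 1.5 and 2879 between 1.5 and 2. Most peaks of the whole list were weak too, with 12969 and 15416 of 38333 in those classes. Of all peaks outside multi-copy sequence 3.81% had a p of 0.01 or less, and of those within it 24.99%. The medians of the score were 1.52 outside and 1.89 within.

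**Figure D1:**
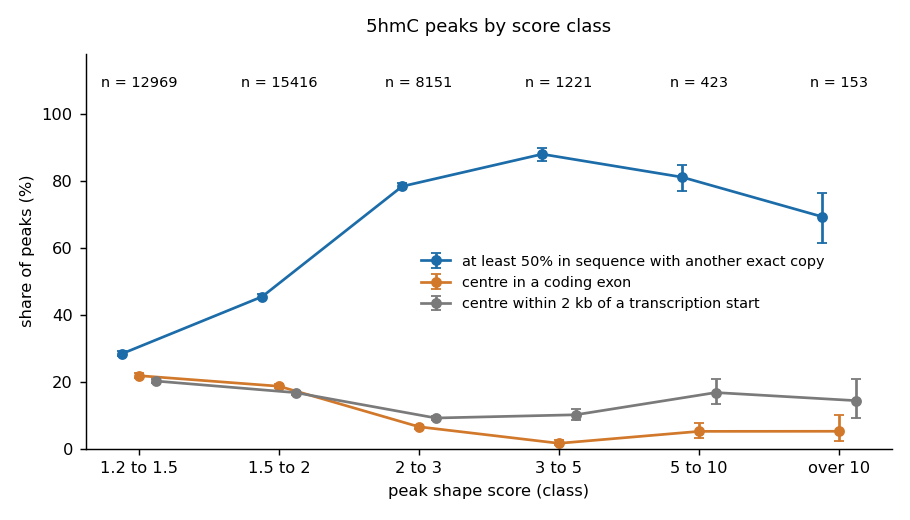
Share of the 5hmC peaks of F0-HDM_F1-Saline against F0-Saline_F1-Saline (y axis, percent) by class of peak shape score (x axis), for peaks at least 50% in multi-copy sequence (blue), centred in a coding exon (orange) and centred within 2 kb of a transcription start (grey), with 95% Clopper-Pearson intervals as bars and the number of peaks above each class. The multi-copy share was lowest in the class of 1.2 to 1.5 (28.4%) and the coding-exon share lowest in the class of 3 to 5 (1.64%).

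By peak centre, 6294 of all 38333 peaks (16.4%, interval 16.0 to 16.8%) lay in a coding exon, 1.52% in an untranslated region, 3.92% in an exon of a noncoding transcript, 26.9% in an intron and 51.2% between genes. The genome itself is 1.38% coding exon and 41.2% intron, so coding exons held 11.9 times their share of peaks while introns held 0.654 times theirs. Of the 5mC peaks of the same groups 4.29% were centred in a coding exon, and of the 5hmC peaks of the HDM-challenged progeny 20.8%. The exons were long ones: outside multi-copy sequence, the coding exons with a peak centre had a median length of 229 bp, against 124 bp for all 209241 merged coding exons. A longer exon offers more bases for a centre to fall on, and the part of that in the difference was not tested.

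Coding peaks followed coding length across genes. Of 1691 protein-coding genes with at most 500 bp of coding sequence, 82 (4.85%) held a coding-exon peak. The share was 23.4% (1540 of 6573) between 1 and 2 kb, 35.0% (1490 of 4255) between 2 and 5 kb, and 66 of 110 genes above 10 kb held one. Per Mb of coding sequence the density varied less, between 136.1 and 207 peaks. In all, 4016 of 18392 protein-coding genes held such a peak. Among the genes with many, named after their values were seen, were Dnah8 with 14, the calcium release channel gene Ryr1 with 13, Ttn, which encodes the muscle protein titin, with 13, and the atypical cadherin gene Fat1 with 12. Ttn has 112 kb of coding sequence and Dnah8 14.2 kb, so the number of peaks was not in proportion to coding length among these few.

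Peaks were denser next to transcription starts. The first 250 bp on either side of a start held 2127 peaks (5.55%), 3.19 times the share of the genome that lies so close. Outside multi-copy sequence the ratio was 4.97 in those 250 bp, 2.08 between 250 and 500 bp, 1.68 between 0.5 and 1 kb and 1.55 between 1 and 2 kb, and it was 0.495 beyond 50 kb. The same first bin had a ratio of 1.33 in the 5mC list and 3.43 in the 5hmC list of the HDM-challenged progeny. In all, 16.1% of the peaks (interval 15.7 to 16.5%) were centred within 2 kb of a start, against 11.1% of the genome. This direction turned with the choice of peaks: the share was 7.44% for multi-copy peaks and 8.80% (interval 8.06 to 9.59%) for peaks with a p of 0.01 or less, both below the genome's share, and it was 24.3% outside multi-copy sequence.

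Peaks were spread over all 21 chromosomes, at 14.5 per Mb of sequence. Among autosomes the density was highest on chromosome 17, with 17.97 peaks per Mb, followed by chromosome 7 with 17.9 and chromosome 4 with 16.97. It was lowest on chromosome 2, with 13.2, which made the highest 1.36 times the lowest. The X had 11.4 peaks per Mb, or 0.762 times the autosomes (interval 0.727 to 0.798), and the Y had 5.83. Among the stronger peaks the X stood above the autosomes, at 1.33 times their density for a p of 0.01 or less and 2.01 times for 1e-06 or less, and the ratio of the highest to the lowest autosome was 2.04 and 5.07 at those limits. These animals were male and carry a single X and Y. Of the X peaks 89.0% were multi-copy, and of the Y peaks 92.0%. Outside multi-copy sequence the X held 1.25 peaks per Mb, against 7.46 for the genome. The 5mC list had 9.65 peaks per Mb on the X and 33.4 over all chromosomes, and the 5hmC list of the HDM-challenged progeny had 17.8 and 33.7.

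**Figure D2:**
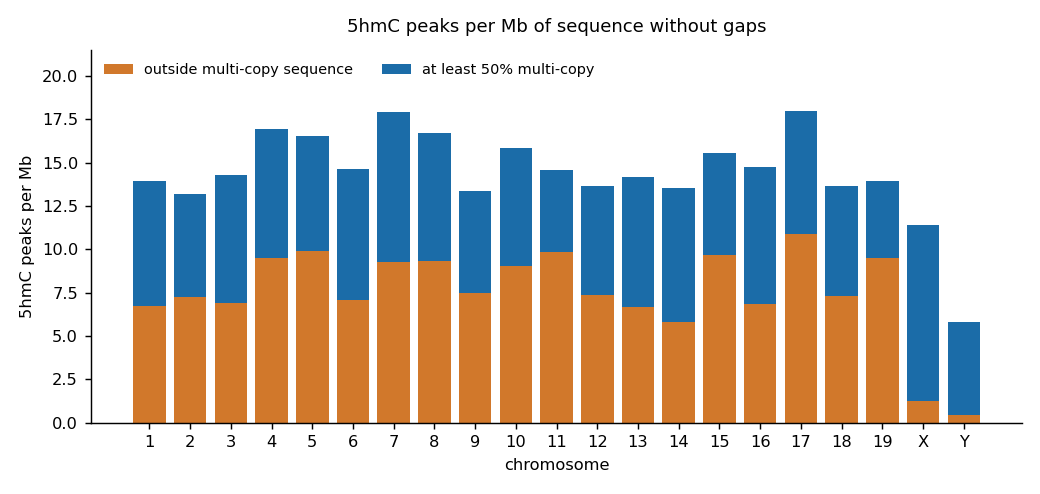
5hmC peaks of F0-HDM_F1-Saline against F0-Saline_F1-Saline per Mb of sequence without gaps (y axis) on each chromosome (x axis), stacked as peaks outside multi-copy sequence (orange) and peaks at least 50% multi-copy (blue). The orange part spans 5.79 to 10.9 peaks per Mb on the autosomes and is 1.25 on the X and 0.465 on the Y.

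Of the 38333 peaks, 38.99% (interval 38.5 to 39.5%) overlapped a gene by the list's own gene columns, and 8050 genes were overlapped. Of the 34566 genes named in the lists with a known span, 7890 (22.8%) had at least 1 peak, 2.26% had one at a p of 0.01 or less and 0.226% at 1e-06 or less. With multi-copy peaks left out the share was 19.2%, by the annotated span in place of the gene columns it was 25.4%, and 12.8% of the genes held a peak centred in a coding exon. In the 5mC list of the same groups the share of genes was 35.3%. Long genes were hit more often, with a peak in 6.64% of genes up to 5 kb, 22.5% between 5 and 20 kb, 41.3% between 20 and 100 kb, 61.1% between 100 and 300 kb and 76.1% beyond that. The counts for gene lists below, and the order of their members, follow the list's gene columns, which name 1 gene on either side of a peak. These columns can pass over a gene that holds the peak in its annotated span, and where such a member would rank among those named for a list it is given beside them. Counts of genes with a coding-exon peak are by annotated span. Each list's share is set beside its median gene length, since most of the lists are of long genes.

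The strongest peak in any gene lay in exon 3 of the predicted gene Gm10801, at chr2:98663658-98664096, with a score of 39.8. The next, at chr8:23095399-23095826 with a score of 25.5, lay in an intron of Ank1, the gene of an ankyrin that ties the membrane skeleton of red cells, 488 bp from an annotated start. Gm21738 followed with 23.5, then Vmn2r35, a vomeronasal receptor gene, with 22.95, 2210408I21Rik with 21.8, Mdga2, a cell-surface protein gene of neurons, with 21.8, Gm10800 with 21.6 and Gm26870 with 21.1. Cdk5rap2, which encodes a protein of the centrosome, had 19.8. The intronic peak in Spag17, the gene of a central-pair protein of motile cilia, had 18.4 at chr3:99981039-99981471. Predicted or uncharacterized genes made up 5 of these 10. The Vmn2r35 peak was wholly multi-copy, with a median of 1182 copies. In the other 9 genes the strongest peak stayed under the 50% limit, and in Ank1, Cdk5rap2 and Spag17 no part of it was multi-copy.

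The same places stood out in the 5mC list. The Gm10801 peak had a 5mC score of 40.8, the Ank1 peak 31.1, the Cdk5rap2 peak 21.7 and the Spag17 peak 27.5. At Vmn2r35 the 5mC score was 6.97, well under its 5hmC score. In the 5hmC list of the HDM-challenged progeny, Gm10801 had 36.4, Ank1 25.4, Cdk5rap2 22.1 and Spag17 18.2. In the 5hmC list of F0-Saline_F1-HDM against F0-Saline_F1-Saline, which shares the F0-Saline_F1-Saline library with the present list, the values were 12.0 for Gm10801, 8.61 for Ank1, 7.38 for Cdk5rap2 and 5.83 for Spag17. The scores were set by a different pair of libraries in each list, so their sizes are given side by side without a test. In all 4 of these lists, each of these 4 places was called.

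**Figure D3:**
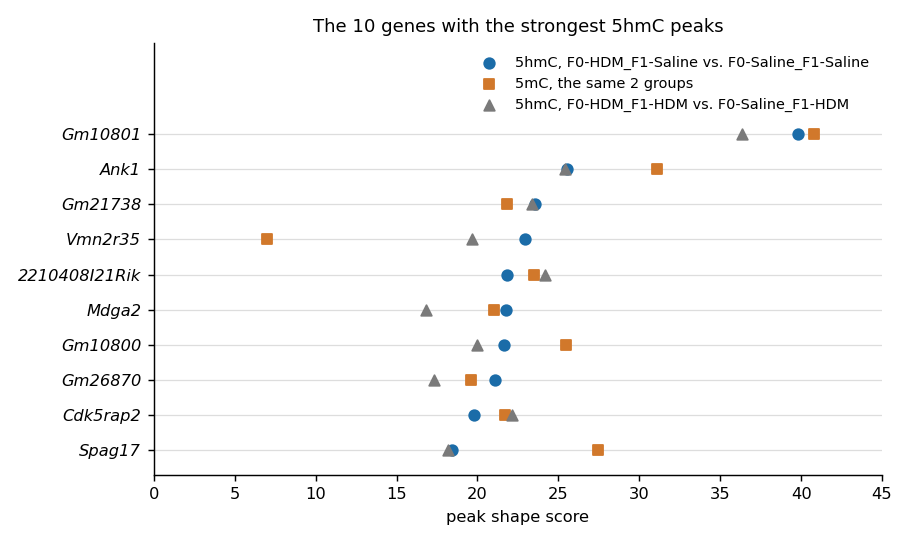
Peak shape scores (x axis) at the 10 genes with the strongest 5hmC peaks of F0-HDM_F1-Saline against F0-Saline_F1-Saline (y axis), as blue circles, with the overlapping 5mC peak of the same groups as orange squares and the overlapping 5hmC peak of F0-HDM_F1-HDM against F0-Saline_F1-HDM as grey triangles. For Gm10801 the 5hmC score of 39.8 stood beside a 5mC score of 40.8, and for Vmn2r35 the 5hmC score of 22.95 stood beside a 5mC score of 6.97.

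Over the whole list, 6897 peaks (18.0%, interval 17.6 to 18.4%) shared at least 1 bp with a 5mC peak of the same groups, and these touched 6943 of the 88420 5mC peaks (7.85%). The share grew with the score, to 35.9% at a p of 0.01 or less and 82.4% at 1e-06 or less. It was 19.2% outside multi-copy sequence, 16.7% within it, and 24.1% for peaks centred in coding exons. With the 5hmC list of the HDM-challenged progeny, 35439 peaks (92.5%) shared sequence, and these touched 40.1% of that longer list. The peaks of the 5mC list covered 35116 kb and those of the HDM-challenged 5hmC list 31195 kb, of 2648 Mb of sequence. The overlap to be had by random placement was not computed. Across the shared places the scores of the paired lists had a Spearman rho of 0.34 with 5mC (n = 6897) and 0.51 with the HDM-challenged 5hmC list (n = 35439). These are descriptions across places, which share base composition and copy number and are not replicates, and the 5mC list also shares its DNA pools with the present one.

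Outside predicted and uncharacterized genes, the strongest coding-exon peaks away from multi-copy sequence were in Eef2, Sfi1 and Peak1. Eef2 had 2 peaks, with scores of 13.2 in exon 3 and 8.96 in exon 4, the second of which also spans the small nucleolar RNA gene Snord37. At the same places the 5mC scores were 11.7 and 7.08, and the scores in the HDM-challenged 5hmC list 17.4 and 11.9. Sfi1 is the gene of a centrin-binding protein of the centrosome, and its strongest coding-exon peak scored 12.8. Peak1, a pseudokinase gene, had 7.10. Behind them came Hjurp, a chaperone of the centromeric histone, with 4.23, and lower down Rest, a repressor of neuronal genes, with 3.21. These genes were picked after their values were seen.

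Some genes carried many peaks. By the gene columns, the genes with the most included Gm26870 (45), C130026I21Rik (40), Fgfr2 (36), Snhg14 (28), C230088H06Rik (27), Dnah8 (27), Sfi1 (26), Gm26573 (23) and Gpc6 (23). They were of unlike kinds. In Gm26870 all but 2 of the peaks were multi-copy, and in Snhg14, an imprinted noncoding RNA gene, all but 1. In Dnah8 none was multi-copy, and in Sfi1 25 of 26 were not. Fgfr2, the receptor gene for the growth factors of lung branching, had a highest score of 3.84, at chr7:130834278-130834712, but its annotated span of 2960900 bp is set by a single long transcript model that runs across neighbouring genes. That peak and most of the 36 lay beyond the other transcripts of Fgfr2, so they belong to the gene only by name. Gpc6, a glypican gene, had 10 peaks outside multi-copy sequence. Per 10 kb, among genes of at least 20 kb with at least 5 peaks, Gm26870 led with 11.8, ahead of the pseudogene Tmem181b-ps with 5.97, Sfi1 with 4.22, Vmn2r35 with 4.15 and Flg, the filaggrin gene of the skin barrier, with 3.47.

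Dnah8 showed how the coding-exon peaks were laid out. The annotated span of Dnah8 held 42 peaks, of which 14 were centred in coding exons, and their scores had a median of 1.601 and a maximum of 2.49. Of these, 16 shared sequence with a 5mC peak and 41 with a peak of the HDM-challenged 5hmC list. The 5mC list held 66 peaks in Dnah8, of which 6 were in coding exons.

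**Figure D4:**
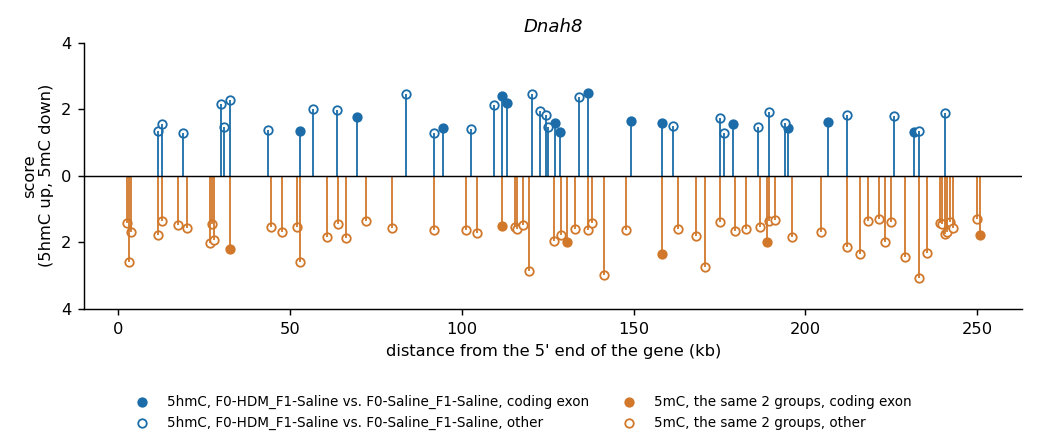
Positions of peaks along Dnah8, as distance from the 5′ end of the gene (x axis, kb), against peak shape score (y axis), with the 5hmC peaks of F0-HDM_F1-Saline against F0-Saline_F1-Saline drawn upwards in blue, the 5mC peaks of the same groups downwards in orange, and filled points for peaks centred in coding exons. Of the 42 5hmC peaks 14 were centred in coding exons, and of the 66 5mC peaks 6 were.

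The axonemal dynein heavy chain genes, a family added after seeing the Dnah8 value, encode the motors of cilia and sperm tails. All 15 carried at least 1 peak, against 22.8% of all genes, but their median length of 239 kb puts them in the classes of which 61.1% to 76.1% had a peak. Together their spans held 121 peaks, of which 99 were outside multi-copy sequence and 41 in coding exons, at 35.6 per Mb. After Dnah8, Dnah17 had 16 peaks, Dnah10 had 12, and Dnah6 and Dnah7c had 10 each. Dnah1, Dnah3, Dnah11 and Dnah12 had 1 each, so the family was far from even. The highest score in the family, 5.43 in Dnah6, was at a multi-copy place.

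The candidate genes measured singly in the study had been picked by the study from the comparison of F0-HDM_F1-HDM with F0-Saline_F1-HDM, which shares no library with the present list. Of 26 candidates, 14 (53.8%) had a peak, against 22.8% of all genes and 41.3% of genes between 20 and 100 kb, the class of their median length of 30.9 kb. A peak at a p of 0.01 or less was found in 12, against 2.26%, and the median of their best scores was 6.39, against 1.63 for all genes with a peak. The candidates had been chosen for 5mC and 5hmC calls in the comparison of HDM-challenged progeny. Of the present peaks, 92.5% shared sequence with the 5hmC list of that comparison, so these values are not independent support for the candidates. The highest were Spag17 with 18.4 and Aida, which encodes an axin-interacting protein, with 17.3. Next came Erdr1 with 14.6 and Luzp2, a leucine zipper protein gene, with 13.5, ahead of Eef2 with 13.2. Ranbp3l had 7.24, Lars2, the mitochondrial leucyl-tRNA synthetase gene, 6.85 in the untranslated end of its last exon, Asmt, which encodes the last enzyme of melatonin synthesis, 5.94, and Muc19, a gel-forming mucin gene, 5.04. Col23a1 (2.95), the potassium channel gene Kcnh1 (2.92), Tmem125 (2.71), Dpcd (1.47) and the peroxisomal oxidase gene Acox2 (1.38) made up the rest.

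The candidates with peaks were of both kinds of place. The Spag17 and Aida peaks were in introns and not multi-copy, and both had higher 5mC scores, of 27.5 and 26.8. In Luzp2, 11 peaks were listed, and its strongest, in an intron, was wholly multi-copy with a median of 667 copies and a 5mC score of 4.12. The 3 strongest Muc19 peaks, of 6, were multi-copy with 6 or 7 copies, and the top ones in Ranbp3l, Kcnh1 and Col23a1 were mostly multi-copy too. Asmt had 3 intronic peaks outside multi-copy sequence, with scores of 5.94, 3.62 and 1.78, beside 5mC scores of 21.8, 4.71 and 3.50. Erdr1, a gene of the pseudoautosomal region, was named for 21 peaks, all between 90784645 and 90816628 on chromosome Y, with scores between 1.32 and 14.6. Of these 14 were multi-copy, 18 shared sequence with a 5mC peak and 19 with a peak of the HDM-challenged 5hmC list. Erdr1 and Asmt have copies on X and Y, so the chromosome of their reads is uncertain. No peak overlapped Cdr1, Dpy19l1, Foxi1, Kdm6a, Mrs2, Nox3, Nron, Oasl2, Rnu6, Smpdl3a, Ugt8a or Xcr1.

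Genes of the DNA methylation machinery had peaks in 9 of 14 cases (64.3%, against 22.8% of all genes and 41.3% of genes between 20 and 100 kb), nearly all weak, and their median length was 33.1 kb. Tet3 had 6 peaks, none multi-copy, with scores of 2.36, 2.19, 1.54, 1.53, 1.46 and 1.43. Of these, 4 were centred in coding exons. The others of the 4 top scores were those of Mbd3, which encodes a subunit of the NuRD repressor complex, with 2.25 in an intron, Tet1 with 1.91 in coding exon 1, and Mbd1 with 1.86. Tet3 was the only gene of the list with a p of 0.01 or less. The span of Dnmt3a, a writer of new 5mC, also held 4 peaks of up to 1.62. Every Tet3 peak overlapped a peak of the HDM-challenged 5hmC list, with scores there between 1.89 and 3.65, and 3 of the 6 overlapped a 5mC peak.

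Genes of airway smooth muscle had a peak in 8 of 18 cases (44.4%). Chrm3, the muscarinic receptor through which acetylcholine contracts the airway, had the highest score, 2.83, followed by the potassium channel gene Kcnma1 with 2.29, Ppp1r12a, a regulatory subunit of myosin phosphatase, with 1.99, and the calcium release channel gene Itpr1 with 1.94. By span, Pde4d, which encodes a phosphodiesterase that breaks down cyclic AMP, held 15 peaks of up to 3.26, above the Chrm3 score, and the count was 10 of 18. Collagen and matrix genes had peaks in 9 of 15 cases, led by Col23a1 (2.95), Col6a3 (2.20), the fibronectin gene Fn1 (1.72) and Col5a1 (1.596). By span, Col4a2, a chain of basement membrane collagen, followed Col6a3, with 4 coding-exon peaks of up to 1.998. Col6a3 had 7 peaks, all in coding exons and none shared with the 5mC list. The median gene length of these lists, 131 and 67.7 kb, is far above the 6.69 kb of all genes, and 61.1% of genes between 100 and 300 kb and 41.3% of those between 20 and 100 kb had a peak.

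Many peaks of the signalling lists lay in coding exons, but this was not particular to them. Of the peaks within the annotated spans, 17 of 24 in Wnt genes and 8 of 15 in TGF-beta and BMP genes were centred in a coding exon. The counts were 14 of 22 in endothelial and pericyte genes, 18 of 31 in collagen and matrix genes and 11 of 22 in DNA methylation genes. Lung development genes aside, the share was lower in the remaining lists, and T cell genes had the highest of these, at 9 of 21. Of the 59 peaks in lung development genes, 36 lay in the Fgfr2 span, which runs across neighbouring genes, so no such share is given for that list. A coding-exon peak fell within 8 of 17 Wnt genes, 6 of 21 TGF-beta and BMP genes and 7 of 21 lung development genes. The lung development count includes Fgfr2 by its long span. Among all genes the share was 12.8%, but many of these have no coding sequence. Of protein-coding genes, 4016 of 18392 held a coding-exon peak, and 35.0% of those with 2 to 5 kb of coding sequence did. The coding lengths of the lists were not compared. Median lengths were 47.0 kb for Wnt genes, 69.0 kb for TGF-beta and BMP genes and 57.5 kb for lung development genes, in the class of which 41.3% had a peak of any kind. TGF-beta and BMP genes overlapped by any peak numbered 7 of 21 (33.3%), with Smad6 at 2.28, Smad9, which relays BMP signals, at 2.25, Smad1 at 1.597 and the receptor gene Tgfbr2 at 1.49. Smad9 had 6 peaks. Wnt genes had 8 of 17 (47.1%), with Rspo2, an enhancer of WNT signalling, at 2.36 in multi-copy sequence, Wnt2b, a secreted WNT ligand, at 2.22, Wnt7b at 2.15 and the co-receptor gene Lrp5 at 1.97. By span the count was 10 of 17, and Wnt5a, another WNT ligand, came second, with 2 coding-exon peaks of up to 2.25. Genes of lung development had 10 of 21 (47.6%), led by Fgfr2 at 3.84 (the place outside its other transcripts), the forkhead gene Foxp4 at 2.09, the hedgehog receptor gene Ptch1 at 1.89 and Foxp1 at 1.87. By span, Rarb, a retinoic acid receptor gene, held 5 intronic peaks of up to 2.60, a score above that of Foxp4 and at a multi-copy place. No TGF-beta or BMP gene had a p of 0.01 or less by the gene columns. The 1 Wnt gene with such a p was Rspo2, at its multi-copy place. The 1 lung development gene was Fgfr2, at the place outside its other transcripts.

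Markers of lung epithelium had a low share, with the basal cell gene Trp63 (1.43) as the single one of 15 by the gene columns (6.67%, against 22.8% of all genes and 22.5% of genes between 5 and 20 kb), and their median length was 9.76 kb. By span the count was 2 of 15, with Abca3, a lipid transporter gene of alveolar type II cells, at 1.82. Motile cilium genes, with a median length of 87.6 kb, had 10 of 17 (58.8%), led by Spag17 (18.4), Cfap43 (2.91), Dnah5 (2.06) and Dnah11 (2.03). Only the Spag17 and Cfap43 values reached a p of 0.01 or less, and the Cfap43 and Dnah5 peaks were multi-copy. Mucin genes, with a median of 30.3 kb, had 5 of 11 (45.5%). The highest were Muc19 (5.04) and Muc16 (1.86), both in multi-copy sequence, then the intestinal gel mucin gene Muc2 (1.75) and Muc4 (1.37). Endothelial and pericyte genes, with a median length of 45.6 kb, had 10 of 15 (66.7%), and none of them at a p of 0.01 or less. The angiopoietin receptor gene Tek came first (2.15, in multi-copy sequence), then Cdh5, which encodes VE-cadherin, at 2.07 in coding exon 12. The lymphatic regulator gene Prox1 (1.89) and Notch3 (1.87) followed. The median lengths of the motile cilium, mucin and endothelial and pericyte lists are in the class between 20 and 100 kb, of which 41.3% had a peak.

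In each of the 4 immune lists, 1 gene had a peak with a p of 0.01 or less, which is 6.25% of type 2 immunity genes, 6.67% of T cell genes, 7.14% of macrophage, eosinophil and B cell genes and 11.1% of mite sensing genes, against 2.26% of all genes. With lists this short, these shares rest on a single gene each. Type 2 immunity genes had 6 of 16 (37.5%), and the highest scores were those of Il1rl1, the receptor of interleukin 33, with 2.38, Il25, an epithelial cytokine gene, with 2.31 in coding exon 3, Gata3, the regulator of Th2 cells, with 1.65 and Rora with 1.56 (1.73 by span). T cell genes had 6 of 15, and 8 of 15 by span. Cd28, the co-stimulatory receptor gene, had 4 peaks, of which the strongest, 3.33, was multi-copy, and Nfatc2 (2.20), Nfatc1 (1.69) and Cd4 (1.41) followed. By span, Ctla4, an inhibitory receptor gene, had a peak of 1.63 and Zap70, a kinase gene of T cell receptor signalling, had 3 of up to 1.62, both above Cd4. Macrophage, eosinophil and B cell genes had 3 of 14 (21.4%): Adgre1, which encodes F4/80, at 2.84 in multi-copy sequence, the eosinophil peroxidase gene Epx at 1.42 and Pax5 at 1.36. By span the count was 4 of 14, with Mrc1, the mannose receptor gene, second at 2.21. Receptors and adaptors that sense mite products had 2 of 9 (22.2%), the endotoxin receptor gene Tlr4 with 3 multi-copy peaks of up to 2.76, and Nlrp3 with 1.81, and none outside multi-copy sequence. Among the NADPH and dual oxidases only Nox1 (1.81) of 8 had a peak. Median lengths were 16.8 kb for type 2 immunity, 25.3 kb for T cell and 18.3 kb for macrophage, eosinophil and B cell genes. They were 13.5 kb for mite sensing genes and 42.4 kb for the oxidases. A peak was found in 22.8% of all genes, 22.5% of those between 5 and 20 kb and 41.3% of those between 20 and 100 kb.

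**Figure D5:**
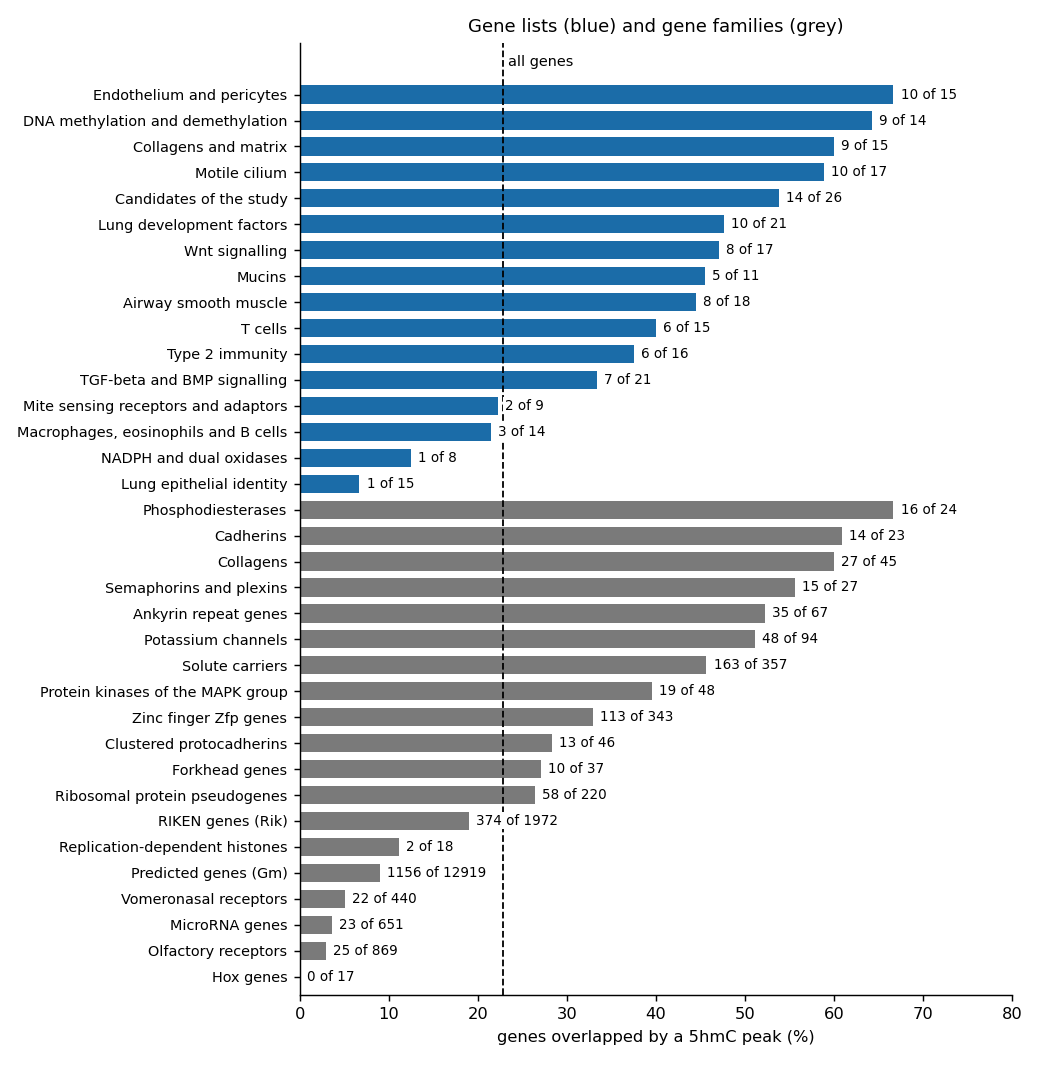
Share of genes overlapped by at least 1 5hmC peak of F0-HDM_F1-Saline against F0-Saline_F1-Saline (x axis, percent) for 16 gene lists (blue) and 19 gene families (grey), with the number of genes hit of those named beside each bar and the share of all genes, 22.8%, as a dashed line. Shares ran between 0% (0 of 17 Hox genes) and 66.7% (10 of 15 endothelial and pericyte genes, and 16 of 24 phosphodiesterases).

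Among gene families, those of long genes had the highest shares. Phosphodiesterases had 16 of 24 (66.7%), led by Pde1c (3.03) or, by span, by Pde4d (3.26), cadherins 14 of 23 (60.9%), led by Cdh18 (2.76), and collagens 27 of 45. Semaphorins and plexins had 15 of 27 (Plxna4 2.38, and Sema3d 2.90 by span in multi-copy sequence). Ankyrin repeat genes had 35 of 67 (Ank1 25.5, then Ankib1 2.71) and potassium channel genes 48 of 94 (Kcnq3 8.96, in multi-copy sequence). Solute carriers had 163 of 357, with Slc15a5 highest at 5.41 in multi-copy sequence. Kinases of the MAPK group had 19 of 48, with Map3k4 at 2.81, and zinc finger Zfp genes 113 of 343, with Zfp949 at 5.17. Median lengths were 122 kb for phosphodiesterases, 145 kb for cadherins and 114 kb for collagens, in the class of which 61.1% had a peak. Semaphorins and plexins, ankyrin repeat genes, potassium channel genes, solute carriers and MAPK group kinases had medians between 28.7 and 41.5 kb. Their shares ran between 39.6% and 55.6%, against 41.3% of that length class. Zfp genes had a median of 16.5 kb and a share of 32.9%, against 22.5% of their class. Of all genes 22.8% had a peak.

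Among the other families, the olfactory and vomeronasal receptor genes had low shares. Their median lengths, 5.79 and 7.73 kb, are in the class of which 22.5% had a peak. Olfactory receptors had a peak in 25 of 869 genes (2.88%), with Olfr322 highest at 1.89, or in 40 by span, with Olfr11 highest at 2.34, and vomeronasal receptors in 22 of 440, among which Vmn2r35 stood alone at 22.95, ahead of Vmn2r-ps11 at 2.88 and, by span, Vmn2r46 at 3.10. The peaks in Olfr11, Vmn2r-ps11 and Vmn2r46 were multi-copy, and without multi-copy peaks the vomeronasal count was 9. Replication-dependent histones had 2 of 18 (11.1%), Hist1h2br at 1.52 and Hist1h2bq at 1.51, both multi-copy. None of 17 Hox genes had one. Histone and Hox genes, with median lengths of 0.678 and 3.41 kb, are in the class up to 5 kb, of which 6.64% had a peak. Clustered protocadherins, forkhead genes and ribosomal protein pseudogenes had shares near the 22.8% of all genes. Their median lengths were 39.8, 6.35 and 0.456 kb, in classes of which 41.3%, 22.5% and 6.64% had a peak. Clustered protocadherins had 13 of 46 (28.3%), with Pcdhgb1 and Pcdhga6 at 2.06, and 26 of 46 by span, where genes of a cluster share peaks and Pcdha1 stood at 2.15. Forkhead genes had 10 of 37, with Foxk1 at 2.19. Ribosomal protein pseudogenes had 58 of 220 (26.4%), led by Rpl10a-ps1 at 2.82 in multi-copy sequence. Without multi-copy peaks they had 22 of 220, against 19.2% of all genes and 4.66% of genes up to 5 kb.

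Of 1005 annotated microRNA hairpins 37 were overlapped, by 34 peaks. By the gene columns the share was 23 of 651 microRNA genes (3.53%), with Mir6236 highest at 5.27. It was 22.8% for all genes and 6.64% for genes up to 5 kb. The microRNA genes have a median length of only 0.082 kb, and whether their share is low for that length was not tested. A group chosen after its values were seen lay in the imprinted Dlk1-Dio3 region of chromosome 12, where 8 of 57 hairpins, between positions 109563692 and 109743496, met 5 peaks. Mir543 met the strongest, at chr12:109716975-109717417, with a score of 2.004. A single peak at chr12:109742992-109743456, with a score of 1.57 and 20 CpG, covered all or part of Mir369, Mir409 and Mir412. Mir411 met a score of 1.51, Mir485 and Mir668 shared one of 1.40, and Mir770 met one of 1.30. None of them had a p of 0.01 or less. For each hairpin at the first 2 of these peaks, a mature RNA that lay wholly within the peak is printed to name the member, from RefSeq on GRCm38, with the seed (bases 2 to 8) in capitals. The 5p arm is shown for Mir369, since its 3p arm lay past the end of the peak.
mmu-miR-543-3p: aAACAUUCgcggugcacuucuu
mmu-miR-369-5p: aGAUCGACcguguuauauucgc
mmu-miR-409-3p: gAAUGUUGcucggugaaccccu
mmu-miR-412-3p: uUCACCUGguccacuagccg
The 4 seeds differ, so these members are not of a single seed family. The whole region held 9 peaks of the present list, 16 of the 5mC list and 31 of the 5hmC list of the HDM-challenged progeny.

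Part of the peaks sat in dense clusters, which were looked for after the peak positions were seen. In windows of 100 kb the mean was 1.45 peaks, and 124 windows held 10 or more. Those windows had 1817 peaks (4.74% of the list) but 263 of the 632 peaks with a p of 1e-06 or less. The densest, on chromosome Y near the Erdr1 peaks, held 50 peaks, and the first window of chromosome 9 with sequence, around Gm26870, held 48. A window of chromosome 8 held 43, and a window of chromosome 6 without a gene in it held 39, every one of them multi-copy. Other dense windows lay mostly outside multi-copy sequence. The Sfi1 window of chromosome 11, the fourth densest, held 40 peaks, of which 39 were outside it, the first window of chromosome 17 with sequence held 31, of which 29 were, and that of chromosome 4 held 26, of which 24 were. The Dnah8 window held 19 peaks with none multi-copy. The 5mC list held 66, 50, 34, 97 and 15 peaks in the 5 densest windows, in order of their 5hmC peaks.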

How the data were processed

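Lung DNA from 4 groups was captured for 5mC and for 5hmC, giving 8 libraries and 6 peak lists, with fragments of about 200 bp. The authors called peaks between pairs of pooled libraries in CLC Genomics Workbench, and their deposited lists give each peak's position, peak shape score, p-value (not adjusted, up to 0.1) and a nearby gene on either side. The score of each deposited peak is the caller's own value, and the listed p-value equals its upper normal tail (largest relative difference 8.39e-13). Positions are on GRCm38/mm10, and Bowtie 0.12.9, CASAVA 1.8.0 and FastQC are the tools given in the submitters' processing notes. Read numbers are not in the lists, so depth and per-peak precision are unknown.

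Peaks were annotated here with GENCODE vM21 (matplotlib 3.10.9, numba 0.67.0, scipy 1.17.1, pandas 2.3.3, numpy 2.4.6, python 3.11.15). A gene counted as overlapped where the list gives distance 0. Spans were found for 34566 of 36271 symbols. A peak's class came from its centre, coding exons ranking first, and its distance from a start was taken to the nearest of 132629 annotated starts. The multi-copy share was counted in 51-bp windows on both strands of 21 chromosomes as exact copies only, so diverged repeats are missed. In the 5mC list, 18 mitochondrial peaks were left out. Functions were tested on simulated data, and 60 of 60 planted repeat shares came out within 1.5 points.

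No test compared the groups. The members and gene lists were chosen with earlier results of these data known. Genes were named by rule: the 10 strongest peaks in genes, the 10 genes with the most peaks, the 5 densest, the 5 widest and 5 shortest peaks, the candidates, and up to 4 members of each list by score. A gene and a sequence that the rules would name are not reported here. Exceptions are marked as chosen after their values were seen. Alternatives were a stricter p, no multi-copy peaks, gene spans, other distances to a start and a 50% overlap.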

Additional observations from a re-analysis of the deposited data

How the results depend on the processing

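No paired analysis was possible because each group had 1 pooled library per assay. The number of genes overlapped, 8050 in the full list, was 805 at a p of 0.01 or less and 80 at 1e-06 or less, since fewer peaks enter. The share of peaks in genes, 38.99%, was 23.4% and 29.3% at those limits, 56.3% without multi-copy peaks and 45.5% by annotated span. The share near a start, 16.1%, was 8.80% at a p of 0.01 or less, 24.3% without multi-copy peaks, 10.9% within 1 kb and 27.5% within 5 kb. The share meeting a 5mC peak, 18.0%, was 35.9% and 82.4% at the stricter limits, 19.2% without multi-copy peaks and 16.7% with a 50% overlap. The highest autosome density over the lowest, 1.36, was 2.04 and 5.07 at the stricter limits. The X over the autosomes, 0.762, was 1.33 and 2.01 at the stricter limits and 0.154 without multi-copy peaks, so its direction turns with the choice of peaks. Of 35 list and family counts, 33 moved by more than 1.5 times at a p of 0.01 or less, 34 at 1e-06 or less, 5 without multi-copy peaks and 3 by annotated span. The cause of these shifts was not tested.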

Other observations

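Gene types differed in how often the 5hmC list of the unchallenged progeny of HDM-exposed dams touched them. Protein-coding genes had a peak in 34.3% of 19020 cases, lincRNA genes in 12.6% of 2231, antisense genes in 14.2% of 1525 and processed pseudogenes in 11.9% of 4218. Shares were low for snoRNA genes (2 of 922), rRNA genes (1 of 282) and immunoglobulin V genes (0 of 116), while microRNA genes had 3.41% of 1321. Predicted genes (Gm) had a peak in 1156 of 12919 cases (8.95%) and RIKEN genes in 374 of 1972. Without multi-copy peaks the Gm count was 704. These shares follow gene length in part, with medians of 19.4 kb for protein-coding genes, 5.70 kb for lincRNA genes and 0.130 kb for snoRNA genes, and were given no test.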
